A study of Mus musculus with 23 samples.

Results

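Thyroid hormone genes were followed in mouse oligodendrocyte lineage cells in culture. The 8 genes were chosen by name from the deposited tables, which hold 35385 gene rows each: Thra and Thrb (the hormone receptors), Rxrg (a receptor partner), Dio2 and Dio3 (deiodinases), and Klf9, Hr and Thrsp (genes known to respond to the hormone). After a filter on low values, 6 of the 8 could be tested in progenitors of the SOX6 experiment, 7 in its differentiating cells, 7 over both stages and 5 in sorted cells. A further 40 genes of the pathway, in 6 lists (transporters, hormone handling, receptor partners, corepressors, coactivators and other hormone-responsive genes), were read beside them.

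Thyroxine is converted by DIO2 to T3, the active hormone, and DIO3 inactivates both. T3 binds the nuclear receptors encoded by Thra and Thrb, which sit on DNA with an RXR partner. Without hormone they hold corepressors at their target genes, and with hormone they recruit coactivators. T3 is known as a signal for oligodendrocyte progenitors to stop dividing and to mature, and Klf9 is one of its direct targets in these cells.

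The study has 23 libraries in 8 groups. All cells were derived from the mouse epiblast stem cell lines EpiSC5 (strain 129SvEv) and 129O1 (strain 129S1/SvImJ), and the line behind each library was not used here. Oligodendrocyte progenitor cells (OPCs) had been purified by flow sorting for CD140a and NG2 and were grown in DMEM/F12 with N2 Max, B27, bFGF and PDGFA. One set compared magnetically sorted OPCs with magnetically sorted O1+ oligodendrocytes (OLs), 3 libraries each. The SOX6 set had 17 libraries of cells infected with a lentiviral CRISPRv2 vector, and every group, controls included, went through 96 hours of puromycin (500 ng/mL). The OPC groups were controls with a non-targeting guide (n = 3), guide 1 against Sox6 (n = 2) and guide 2 against Sox6 (n = 3), each kept for 60 hours in growth medium. Cells called OLs in the labels carried the same guides (n = 3 each) and spent 60 hours in a medium that permits differentiation, with noggin, IGF-1, cyclic AMP and NT3. These cultures were not sorted, and targeted and control cells came from 1 batch of OPCs.

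The hormone differs between the media. The full differentiation medium of the protocol has 40 ng/mL T3, and the permissive medium used for the SOX6 set is the same without added T3. The protocol gives the T3 medium for making immature oligodendrocytes in general, and does not name the medium of the sorted OLs. B27, as usually made, itself contains some T3, so the SOX6 cultures are described here as having no added T3, not as free of it.

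The SOX6 set had 13967438 to 16958611 counts per OPC library and 13124580 to 18551822 per OL library, while the depth of the sorted libraries is unknown. The targeted gene Sox6 read 165.4 to 233.7 CPM (counts scaled by library size) in control OPCs and 67.4 to 88.9 in targeted ones, and 387.4 to 437.3 in control OLs and 157.2 to 258.6 in targeted ones, so the groups did not overlap at either stage. The authors' deposited DESeq2 results give Sox6, as log2 of control over targeted, at 1.48 in OPCs (DESeq2 adjusted p = 3.01e-05). In OLs they give 0.83 (DESeq2 adjusted p = 0.0593), which does not pass 0.05. One library stood apart: without guide 1 OL library B, the genes called in targeted OLs went from 874 to 2337. Values of Klf9 and Rxrg in targeted OLs are given with and without it. For the other pathway genes, values without it were not taken. Oligodendrocyte markers followed the labelled stages, and 8 of them summed to 56.7 and 26010 TPM (transcript levels scaled by length and library size) in sorted OPCs and OLs, and to 71.9 and 1313 TPM in control OPCs and OLs. Mbp, the gene of myelin basic protein, reached 16288 TPM in sorted OLs and 510.7 TPM in control OLs. OPC markers did not follow the label in the SOX6 set: the 6 of them summed to 3664 TPM in control OPCs and 3647 TPM in control OLs, with 3 called higher and 3 lower, and Pdgfra, which encodes CD140a, averaged 4.94 and 27.6 TPM. In sorted cells 5 of the 6 were lower in OLs and 1, Sox10, was higher. Astrocyte markers also moved with stage, and their part in the results was not tested; the 10 of them summed to 527.3 to 594.2 TPM in sorted OPCs and 1133 to 3114 TPM in sorted OLs, and averaged 677.6 TPM in control OPCs and 5235 TPM in control OLs. Of 8 neuron markers tested between control stages, 4 were higher in OLs (Tubb3, Dcx, Map2 and Rbfox3) and 0 lower, their sum averaging 407.4 TPM in control OPCs and 724.2 TPM in control OLs, and their part was not tested either. Markers of microglia stayed under 1 TPM in sum. Nothing in the labels ties the libraries of 1 group to separate cultures, so the spread behind each p-value is that among these samples and may be technical. In bulk RNA, fewer cells of a type and less RNA per cell cannot be told apart.

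Promoter stretches are shown for 3 genes, because hormone receptors read DNA through the half-site AGGTCA, in pairs spaced by 4 bases (the DR4 element: AGGTCA, any 4 bases, AGGTCA). RefSeq windows of 300 bases (250 before the start and 50 after, build GRCm38.p6) were at hand for 6 of the 8 genes, Hr and Thra not among them. Both strands were searched, and capitals mark the half-site. Klf9 is shown as the receptor target with the steepest rise among the members with a window, from chr19:23140976-23141225, plus strand, which ends at the base before its start. Thrb and Rxrg are shown as the members with a half-site in a window, as 30 bases around it, from chr14:17660764-17660793 and chr1:167618165-167618194, plus strand.
Klf9: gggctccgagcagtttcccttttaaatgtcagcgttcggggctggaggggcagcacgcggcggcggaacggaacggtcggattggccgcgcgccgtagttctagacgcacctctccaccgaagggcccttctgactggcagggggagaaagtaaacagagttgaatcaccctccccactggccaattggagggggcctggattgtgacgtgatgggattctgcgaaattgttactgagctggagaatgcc
Thrb: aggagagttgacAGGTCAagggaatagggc
Rxrg: atcggggttgaaAGGTCAgctgaaagcttc

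The half-site was in 16.3% of the 32851 promoter windows of the table and the DR4 element in 0.0152% of them. Of the 8 windows of the members, 2 held a half-site and none held a DR4 element. These are matches of letters, not sites of binding, and a window without a match says nothing of elements outside it.

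Sorted cells were compared first, to see how far the genes differed between sorted OPCs and sorted OLs. Hr, Klf9 and Thra were higher in sorted OLs, and Hr was the member with the greatest difference. Hr, which encodes a corepressor of nuclear receptors and is itself induced by T3, read 0.083, 0.166 and 0.263 TPM in the 3 sorted OPC libraries and 132.7, 167.3 and 156.7 TPM in the 3 sorted OL libraries. It was close to silent in every OPC library and among the strongly expressed genes in every OL library. On the log2(TPM + 1) scale used for these tests, which understates changes from low levels, Hr rose by 7.03 (SE 0.124, limma adjusted p = 1.04e-06), the 16th largest rise of 11902 genes tested. Hr passed the filter, at least 1 TPM in 3 or more libraries, only through its 3 OL libraries. Its p-value and rank are thus descriptions, not separate support for the difference. Klf9, a zinc finger transcription factor, read 10.3, 9.60 and 8.43 TPM in OPCs and 97.5, 102.0 and 96.6 TPM in OLs. The libraries of each group lay close together and far from the other group, and Klf9 rose by 3.26 (SE 0.103, limma adjusted p = 4.65e-06), a ratio of 10.4 between the mean TPM values.

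Among the receptors, Thra read 12.8, 10.2 and 23.5 TPM in sorted OPCs and 71.2, 78.8 and 79.0 TPM in sorted OLs. The OPC libraries differed among themselves by more than the OL libraries did, but the groups did not overlap, and Thra rose by 2.31 (SE 0.287, limma adjusted p = 0.000744). Thrb read 0.254, 1.33 and 0.939 TPM in OPCs and 1.48, 3.10 and 1.54 TPM in OLs. Every OL library was above every OPC library, yet the highest OPC and the lowest OL library were near each other, and the difference of 0.73 (95% interval 0.00432 to 1.45, limma adjusted p = 0.0763) was not called. It lay at the threshold, with an adjusted p of 0.04996 by limma once libraries were centred on their medians. Rxrg was listed at 0 TPM in all 6 sorted libraries.

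The deiodinases were at or near the bottom of the scale in sorted cells. Dio2 read 0.142, 0.177 and 0.164 TPM in OPCs and 0.136, 0.187 and 0.123 TPM in OLs, which overlap, and it did not pass the filter for testing. Dio3 was listed at 0 TPM in all 6 libraries. Thrsp, a gene of lipid synthesis that responds to T3 in liver, read 1.11, 0.671 and 2.32 TPM in OPCs and 0.510, 1.56 and 0.585 TPM in OLs, again overlapping (-0.31, limma adjusted p = 0.424). In all, 3 of the 5 tested members were higher and 0 lower. By the same rule 60.2% of all genes tested were called, 26.3% higher and 33.8% lower, so a called gene is the usual case in this comparison and the count says little of the members. Their median difference was 2.31, the value of Thra, against -0.14 for all genes tested. The members were chosen with earlier results known and Hr passed the filter only through its OL values, so this median is a description. Beside these values, 3 of 8 astrocyte markers tested were higher in sorted OLs (Gfap, Apoe and Gja1) and 2 lower (Slc1a3 and Fgfr3). The 10 astrocyte markers summed to 1133, 1996 and 3114 TPM in sorted OL libraries A, B and C. Their part in the values of the members was not tested.

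**Figure D1:**
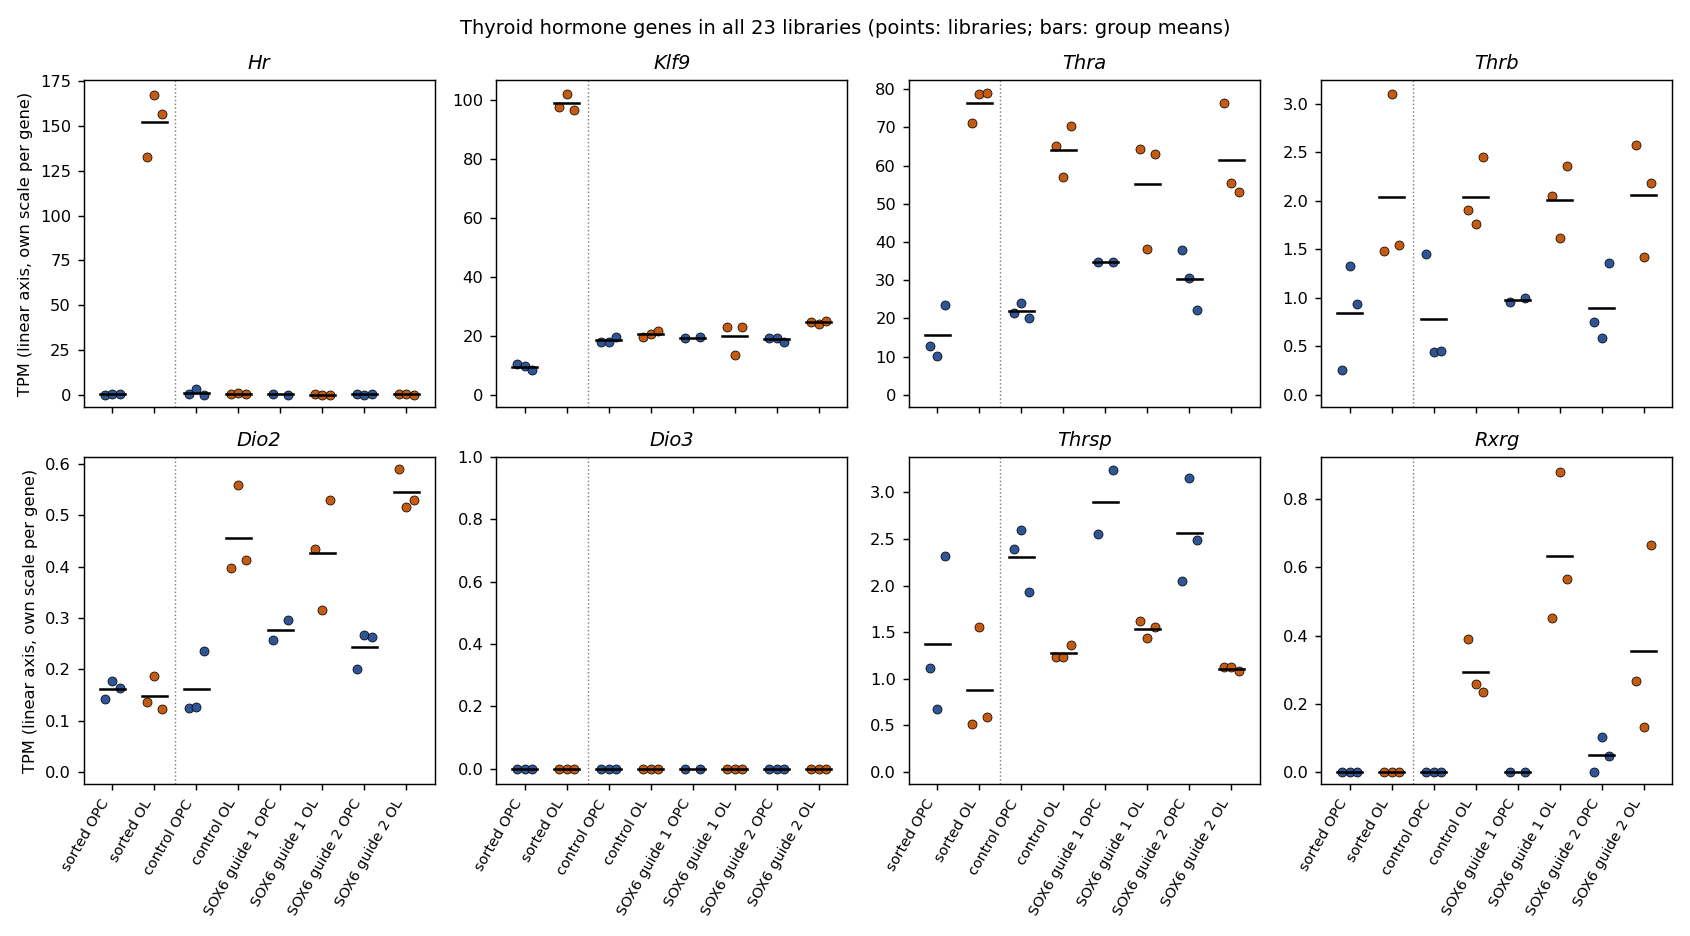
TPM of the 8 thyroid hormone genes in all 23 libraries, 1 panel per gene with its own linear axis; points are libraries (blue for OPCs, orange for OLs), black bars are group means, and the dotted line parts the sorted cells (left) from the SOX6 set (right). Hr and Klf9 are high in the 3 sorted OL libraries (132.7 to 167.3 and 96.6 to 102.0 TPM) and low in all others, Thra is higher in OLs than in OPCs of both sets, and Dio3 is at 0 throughout.

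The other pathway genes in sorted cells moved in both directions. Of 27 that could be tested, 6 were higher in OLs, among them Dbp, Aldh1a1, Atp2a2, Rxrb and Ncoa1, and 11 lower, with a median of -0.37. That is 63% of them, near the 60.2% of all genes called, so these counts and those of the single lists below say little of the pathway. Among transporters, 3 of 4 tested were lower. Slc7a5, which encodes the light chain LAT1 of an amino acid transporter that also carries T3, fell by 1.64, and Slc16a10, which encodes the transporter MCT10, fell by 0.78 from a mean of 1.37 TPM.

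The RXR partners and cofactors showed smaller differences. Of 5 partners tested, only Rxrb passed (0.38), from a mean of 15.9 to 21.0 TPM, which made it the most abundant RXR in these cells, with Rxra at 0.630 and 0.357 TPM. Of 6 corepressor genes, 4 were lower (Tbl1xr1 -1.03, Tbl1x -0.82, Gps2 -0.64 and Ncor1 -0.50) and 1 was higher. Of 6 coactivator genes, Crebbp (-0.57), Ncoa3 (-0.42) and Med1 (-0.38) were lower and Ncoa1 was higher (0.37). Of 6 other hormone-responsive genes, 3 were higher and Camk4 was lower (-0.96). Dbp, a circadian transcription factor, rose by 3.10 from 0.617 to 12.5 TPM, and Aldh1a1, an enzyme that makes retinoic acid, by 3.08 from 6.01 to 56.2 TPM (limma adjusted p = 0.000120 and 0.000530). Atp2a2, a calcium pump, rose by 0.53.

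Control OLs were next compared with control OPCs, both with the non-targeting guide, in 1 edgeR fit over all 17 libraries; here no T3 had been added to the differentiating cells. Thra, Thrb, Dio2 and Rxrg were higher in OLs, Thrsp was lower, and Klf9 and Hr were not called. Thus 5 of 7 tested members were called, beside 43% of all 14352 genes tested (21.4% higher and 21.6% lower). Their median log2 difference was 1.37, the value of Dio2, against 0.02 for all genes. It takes in Rxrg, with 0 counts in control OPCs, and the uncalled Hr. As the members were chosen with earlier results known, it is a description.

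Klf9 read 77.8, 73.7 and 75.8 CPM in control OPCs and 74.1, 76.6 and 79.2 CPM in control OLs. The libraries of the 2 stages were interleaved, and the log2 difference was 0.02 (95% interval -0.16 to 0.19, edgeR adjusted p = 0.898), an interval that leaves room for no more than a small change either way. Hr was low and uneven, with estimated counts of 15.9, 17.7 and 0 in control OPCs and 29.8, 59.4 and 19.4 in control OLs. All 3 OL libraries were above the OPC libraries. The log2 difference of 1.57 had an interval from -1.35 to 4.50 (edgeR adjusted p = 0.386), so no change was detectable. Counts are given for Hr because TPM misleads in control OPC library B, where 17.7 counts stand as 3.02 TPM, against 0.204 TPM from 15.9 counts in library A; the length that this implies was 0.0693 of the gene's median over libraries. With an offset for that length the Hr difference turned to -0.98 (edgeR adjusted p = 0.691).

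The receptors were both higher in control OLs. Thra read 15.9, 20.4 and 15.6 CPM in control OPCs and 41.1, 33.5 and 36.4 CPM in control OLs, with no overlap. It rose by 1.09 (SE 0.211, edgeR adjusted p = 0.000668). Thrb read 3.73, 2.56 and 2.48 CPM in OPCs and 10.1, 9.33 and 8.07 CPM in OLs. It rose by 1.65 (SE 0.206, edgeR adjusted p = 1.25e-05), on counts the largest of the rises that can be given as a fold with an error. In mean TPM the ratio for Thrb was 2.61, below those for Dio2 (2.82) and Thra (2.94). Rxrg had 0 counts in each of the 3 control OPC libraries and 9, 5 and 4 counts in the control OL libraries. It was called higher (edgeR adjusted p = 0.00533). Against a floor of 3 counts over the control OPC group, the observed level in control OLs was 5.81-fold, with no allowance for error in their 18 counts. The mean in control OLs was still only 0.294 TPM.

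Dio2 had 10, 11 and 17 counts in control OPCs and 34, 44 and 28 in control OLs, or 0.717, 0.687 and 1.20 against 1.97, 2.77 and 2.02 CPM. It rose by 1.37 (SE 0.293, edgeR adjusted p = 0.00154) with no overlap. In brain, Dio2 is best known from astrocytes, and astrocyte markers moved with it: 6 of 9 tested were higher in control OLs (Apoe, Slc1a2, Gja1, Gfap, Aldoc and Fgfr3) and 0 lower. Apoe averaged 73.1 TPM in control OPCs and 3567 TPM in control OLs, Gja1 65.3 and 332.8 TPM, and Slc1a2 30.5 and 206.6 TPM. Gfap, Aldh1l1 and Aqp4 stayed low, at 0.314 and 1.22, 0.258 and 1.90, and 0.539 and 5.65 TPM. The part of such cells in the Dio2 result was not tested. Dio3 had 0 counts in all 17 libraries, which allows at most 0.0559 to 0.0906 CPM over a group, taking 3 counts as the limit and counting error alone. Thrsp went the other way, from 2.58, 2.62 and 1.84 CPM to 1.16, 1.20 and 1.30 CPM, a fall of 0.94 (SE 0.266, edgeR adjusted p = 0.00996). It rested on 26 to 42 counts per OPC library and 18 to 20 per OL library.

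Of 35 other pathway genes tested in this comparison, 9 were higher and 6 lower, with a median of 0.03. That is 42.9% of them, beside 43% of all genes, so the calls below are given as values of single genes. Transporters split: Slc7a8 (1.27), Slc3a2 (0.49) and Slc7a5 (0.28) were higher, and 2 were lower, among them Slc16a10 (-1.58), of 6 tested. Of the hormone-handling genes, Ttr, which encodes the carrier protein transthyretin, was lower (-2.55). Ppard was higher (1.06) and Rara lower (-0.70) among the receptor partners, Gps2 (-0.85) and Hdac3 (-0.49) were lower among 6 corepressor genes, and Ncoa1 was higher (0.45) among 6 coactivator genes. Aldh1a1 (2.49), Sema7a (0.76), Gpd2 (0.75) and Atp2a2 (0.37) were higher among 9 other hormone-responsive genes, and Dbp was not called (0.03, edgeR adjusted p = 0.970).

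The sorted and the control-guide cells can be set side by side in TPM, which is a per-length scale, but not tested. The tables, the sorting and the virus differ, possibly the degree of maturity and the added T3 as well, and these cannot be told apart. Hr averaged 152.2 TPM in sorted OLs and 0.481 TPM in control OLs. Klf9 averaged 98.7 and 20.6 TPM, and Dbp 12.5 and 1.31 TPM. Other responsive genes differed the other way: of the 10 in that list, Dbp alone had the higher mean in sorted OLs and 9 had the lower, among them Aldh1a1 (56.2 and 90.4 TPM), Gpd2 (15.8 and 30.1 TPM) and Me1 (0.107 and 17.6 TPM). Nrgn, Shh and Aldh1a3, also among the 9, were under 1 TPM in both groups. The share of all genes with a lower mean in sorted OLs was not taken, so the count says little of the list. Thrsp averaged 0.884 and 1.28 TPM. The receptors lay closer together: Thra averaged 76.3 TPM in sorted and 64.1 TPM in control OLs, and Thrb 2.04 TPM in both. In OPCs the order for Klf9 was the other way round, with 9.44 TPM in sorted and 18.4 TPM in control OPCs. Mbp was 31.9 times as abundant in sorted as in control OLs, and the share of OLs and their maturity cannot be told apart in that value.

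**Figure D2:**
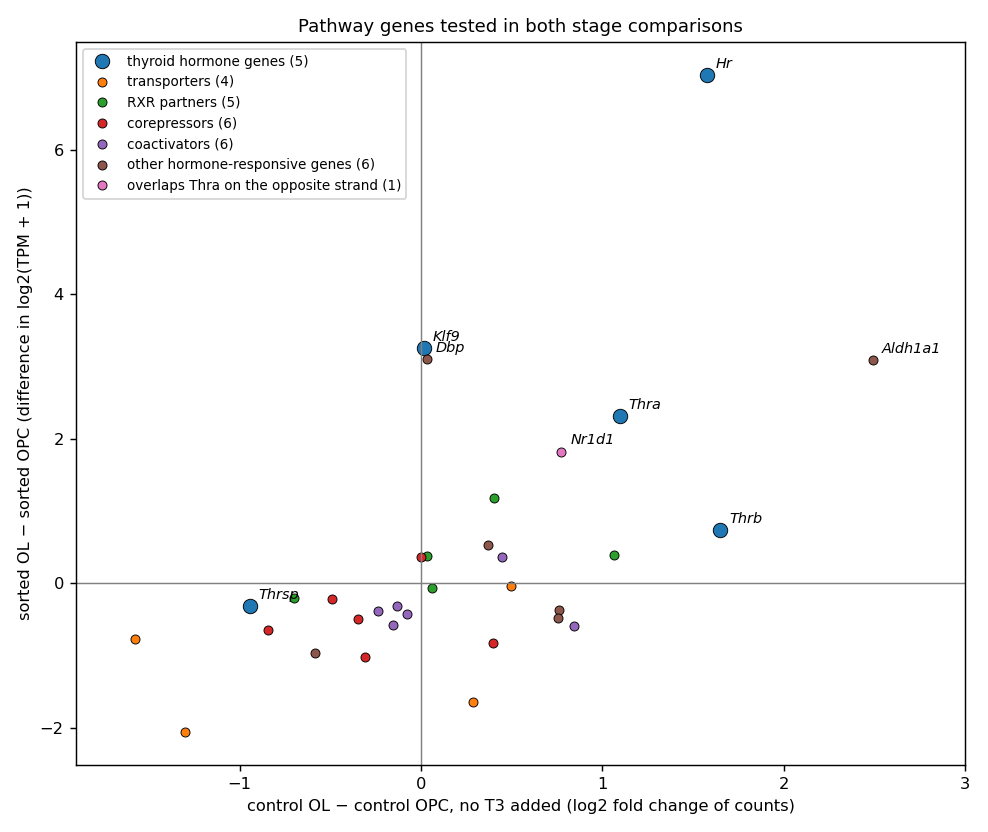
Differences between OLs and OPCs for the 33 genes tested in both sets: control-guide cells on the x axis (log2 fold change of counts, edgeR), sorted cells on the y axis (difference in log2(TPM + 1), limma); colours give the gene lists, with the number of genes in each. Klf9 and Dbp lie near 0 on the x axis and above 3 on the y axis, Hr is the highest point, Thra, Thrb, Aldh1a1 and Nr1d1 lie to the upper right, and Thrsp lies to the lower left.

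The order of the 8 genes by level was alike in most groups. In TPM, Thra led in 7 of the 8 groups and stood behind Hr and Klf9 in sorted OLs. In control OPCs Thra (21.8 ± 1.96 TPM, SD, n = 3) and Klf9 (18.4 ± 0.940) were next to each other and a long way above Thrsp (2.31 ± 0.340), while Thrb (0.781 ± 0.584) and Hr (1.08 ± 1.69) could not be ordered within their spread. In sorted OLs Hr, Klf9 and Thra (152.2 ± 17.7, 98.7 ± 2.90 and 76.3 ± 4.41 TPM) did not overlap, and Thrb and Thrsp (2.04 ± 0.922 and 0.884 ± 0.584) did. Thra was thus the main receptor gene in every group: the ratio of its mean TPM to that of Thrb ran from 18.4 in sorted OPCs to 37.4 in sorted OLs, with single libraries between 7.69 and 54.4. These ratios depend on the lengths behind TPM. By CPM, which has no length scaling, the gap was smaller, for example 36.4 and 8.07 in control OL library C. The length implied for Thrb was 0.409 of its median in control OPC library A, 0.616 in guide 2 OPC library C and 0.630 in control OL library C. The gene-level values of Thra cover its splice forms together, among them one whose protein does not bind T3.

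Thra overlaps Nr1d1, which encodes the circadian repressor REV-ERBα, tail to tail on the opposite strand. Thra lies on chromosome 11 from 98740638 to 98769006 (plus strand, GRCm38, GENCODE M21), and the 2 genes share 1075 bases, of which 263 are exonic in both, 8.55% of the exonic bases of Nr1d1. The library kit does not mark strand, so reads from the shared exons cannot be told apart. Nr1d1 moved with Thra: it rose by 1.82 in sorted OLs (limma adjusted p = 0.000229) and by 0.77 in control OLs (edgeR adjusted p = 4.40e-05). How far shared reads enter either value was not tested. Klf9 lies on chromosome 19 from 23141226 to 23168134 (plus strand) and Hr on chromosome 14 from 70552212 to 70573548 (plus strand). No other gene of the annotation lies over Hr, and 1 miRNA gene, Mir1192, lies within Klf9 on the same strand.

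SOX6 is a transcription factor of the SOX family, and the remaining comparisons ask what its targeting did to these genes. In OPCs no member was called with both guides together. Of 6 tested, 0 passed, beside 3.59% of all 13358 genes tested (1.95% higher and 1.63% lower). Thra and Thrb passed an unadjusted p of 0.05 by edgeR, and DESeq2 called 0. With guide 1 alone 0 of 6 were called, beside 2.78% of genes (1.32% higher and 1.47% lower), with the same 2 genes under an unadjusted p of 0.05, and with guide 2 alone 0 of 6, beside 2.04% (1.33% higher and 0.719% lower), with 0 under it; DESeq2 called 0 with each guide. The members' median log2 difference was 0.36, against -0.00492 for all genes, which is again a description.

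The receptor genes had the lowest p-values. Thrb read 3.73, 2.56 and 2.48 CPM in control OPCs, 5.27 and 5.41 with guide 1, and 4.32, 3.36 and 4.76 with guide 2. Of the 5 targeted libraries, 4 were above all controls, and the log2 difference over both guides was 0.71 (95% interval 0.21 to 1.22, edgeR adjusted p = 0.142). Thra read 15.9, 20.4 and 15.6 CPM in controls, 26.1 and 28.1 with guide 1, and 29.2, 23.1 and 16.0 with guide 2. The last of these lay among the controls, and the difference was 0.54 (95% interval 0.11 to 0.97, edgeR adjusted p = 0.182). In the authors' deposited table, which gives control over targeted, Thra stood at -0.51 with an adjusted p of 0.0912 and Thrb at -0.22 with an adjusted p of 0.915. With a transcript length offset in the edgeR fit, Thrb was at 0.24 (adjusted p = 0.878) and Thra at 0.53 (adjusted p = 0.203). Of 5 oligodendrocyte markers tested in targeted OPCs, 3 were higher, Mbp and Cnp among them, and 0 lower, and their part in the receptor values was not tested.

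Klf9 was the most even of the members in OPCs. It read 77.8, 73.7 and 75.8 CPM in controls, 73.0 and 75.4 with guide 1, and 78.6, 77.6 and 71.5 with guide 2. All 8 libraries lay within 71.5 to 78.6 CPM, and the log2 difference was 0.00728 (95% interval -0.10 to 0.12, edgeR adjusted p = 0.965). Dio2 had 10 to 17 counts in control OPCs and 18 to 25 in targeted ones (0.66, 95% interval -0.14 to 1.45, edgeR adjusted p = 0.399). Hr had 0 counts in 1 control, 1 guide 1 and 1 guide 2 library and otherwise 15.9 to 23.9, so its difference of -0.05 has an interval from -3.03 to 2.93 and no change was detectable. Thrsp differed by 0.18 (95% interval -0.40 to 0.77), and Rxrg had 2 counts and 1 count in 2 guide 2 libraries and 0 in the other OPC libraries.

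In OLs no member was called with both guides together either: 0 of 7 tested, beside 6.5% of all 13447 genes tested (3.13% higher and 3.37% lower). By edgeR 0 passed an unadjusted p of 0.05, and DESeq2 called 0. That statement turned on 1 library for Klf9. Klf9 read 74.1, 76.6 and 79.2 CPM in control OLs, 85.6, 68.0 and 86.1 with guide 1, and 91.8, 96.9 and 93.6 with guide 2. The only targeted library not above all controls was guide 1 library B, the one that stands apart across all genes. With it the log2 difference was 0.18 (95% interval -0.03 to 0.38, edgeR adjusted p = 0.361), and without it 0.22 (SE 0.0421, edgeR adjusted p = 0.00681), which passes. Over the 15 alternatives of that value the adjusted p ran from 0.00681 to 0.663, and this was the 1 alternative that passed.

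Guide 2 alone gave the clearest separation for Klf9 in OLs, with all 3 libraries above all 3 controls. The log2 difference was 0.29 (95% interval 0.05 to 0.53, edgeR adjusted p = 0.205, beside 4.44% of genes called with this guide, 2.31% higher and 2.13% lower). It passed without guide 1 library B (0.28, edgeR adjusted p = 0.00357) and with both stages in 1 fit (0.30, edgeR adjusted p = 0.0374), 2 of its 15 alternatives. With guide 1 alone the difference was 0.06 (edgeR adjusted p = 0.796, beside 4.92% of genes called, 2.39% higher and 2.53% lower) and 0.16 without library B (edgeR adjusted p = 0.0921). Of 7 oligodendrocyte markers tested in targeted OLs, 3 were called higher, Mobp and Mbp among them, and 0 lower. Of the 4 not called, Cnp and Opalin had a higher mean CPM with each guide, and Myrf and Mag had a lower one. In mean TPM, Cnp and Opalin with guide 1 were at 449.1 and 2.86, against 452.8 and 2.90 in controls. Myrf averaged 35.9 CPM in controls and 21.3 and 24.7 CPM with guides 1 and 2. Mag averaged 121.5, 110.1 and 88.1 CPM in that order. The part of these markers in the Klf9 values was not tested.

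**Figure D3:**
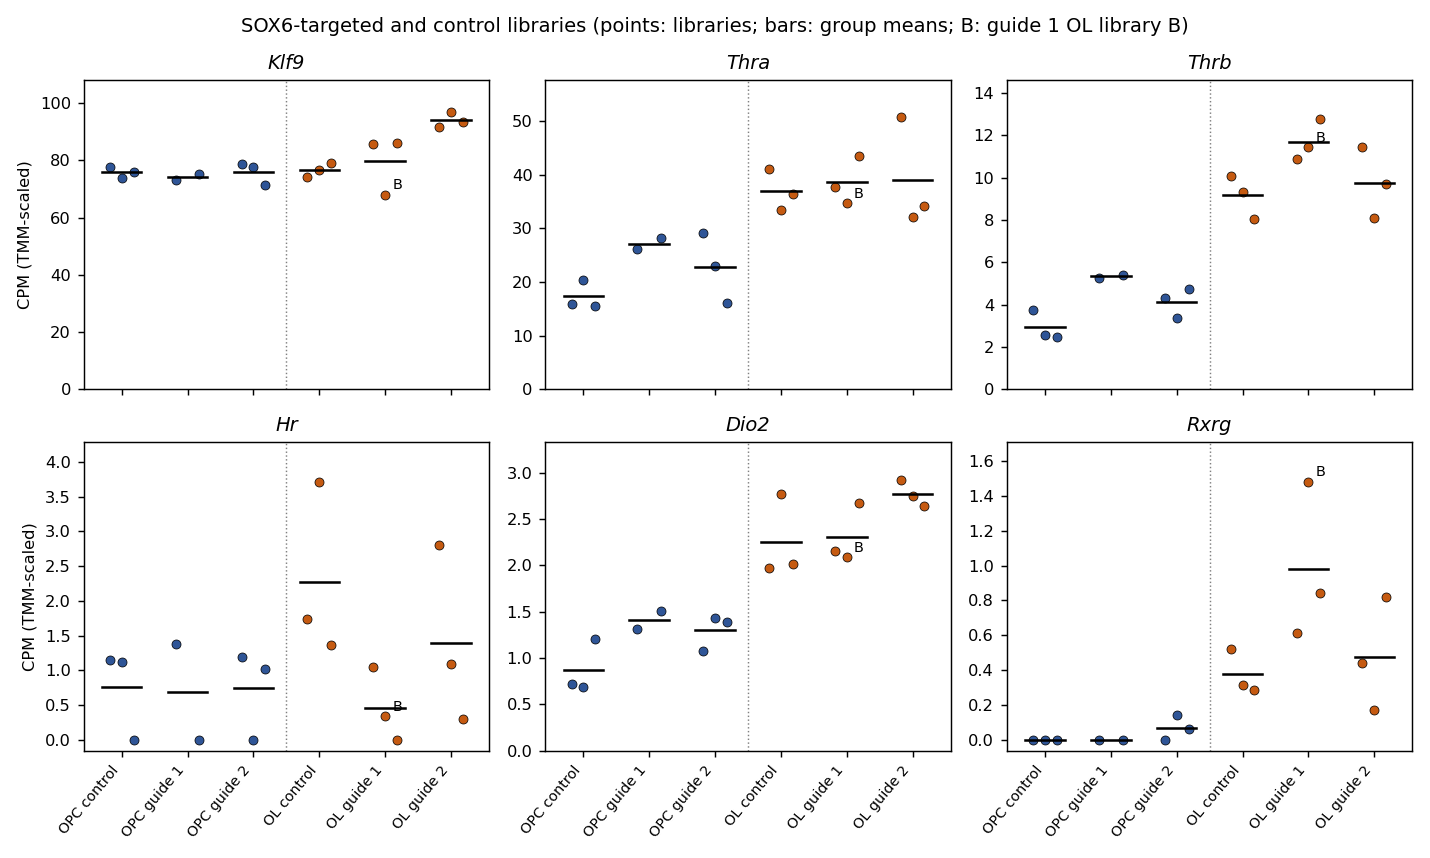
CPM (linear axis, scaled by TMM) of 6 thyroid hormone genes in the 17 SOX6 libraries by stage and guide; points are libraries, black bars are group means, and B marks guide 1 OL library B. Klf9 lies within 71.5 to 78.6 CPM in all OPC libraries and at 91.8 to 96.9 CPM in OLs with guide 2, while Thra, Thrb and Dio2 separate the stages in the control libraries.

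No other member was called in OLs. Hr had 29.8, 59.4 and 19.4 counts in control OLs, 17.1, 5.19 and 0 with guide 1, and 50.9, 18.6 and 5.11 with guide 2. Of the 6 targeted libraries, 5 were below all controls and 1 was not, and the difference of -1.48 (95% interval -3.39 to 0.44, edgeR adjusted p = 0.414) was not called. Thra read 41.1, 33.5 and 36.4 CPM in controls, 37.6, 34.7 and 43.5 with guide 1 and 50.7, 32.2 and 34.1 with guide 2, which overlap (0.07, 95% interval -0.29 to 0.42). Thrb read 10.1, 9.33 and 8.07 CPM in controls, 10.9, 11.4 and 12.8 with guide 1, and 11.5, 8.08 and 9.68 with guide 2. Guide 1 libraries were all above the controls, guide 2 libraries were not, and the difference over both guides was 0.22 (95% interval -0.14 to 0.57, edgeR adjusted p = 0.537). Rxrg had 9, 5 and 4 counts in controls, 10, 22 and 11 with guide 1, and 8, 3 and 14 with guide 2, a difference of 0.84 on few counts (95% interval -0.47 to 2.14, edgeR adjusted p = 0.513), with all guide 1 libraries above the controls. Without guide 1 library B, which held the 22 counts, the Rxrg difference was 0.62 (edgeR adjusted p = 0.586). Thrsp read 1.16, 1.20 and 1.30 CPM in controls, 1.48, 1.75 and 1.45 with guide 1, and 1.05, 1.09 and 0.998 with guide 2, on 17 to 26 counts per library. All guide 1 libraries were above and all guide 2 libraries below the controls, so the value over both guides (0.07) averages 0.36 with guide 1 (95% interval -0.34 to 1.06, edgeR adjusted p = 0.576) and -0.22 with guide 2 (95% interval -0.93 to 0.48, edgeR adjusted p = 0.844). Dio2 read 1.97, 2.77 and 2.02 CPM in controls and 2.09 to 2.92 CPM in targeted OLs, which overlap (0.16, 95% interval -0.37 to 0.69).

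The SOX6 response did not differ between the stages for any member by the test of the difference itself: 0 of 7 were called, beside 1.69% of all genes (0.92% higher and 0.773% lower), with 0 at an unadjusted p of 0.05 by edgeR and 0 by DESeq2. For Klf9 the response in OLs minus that in OPCs was 0.19 (95% interval -0.03 to 0.41, edgeR adjusted p = 0.532), and 0.24 without guide 1 OL library B (edgeR adjusted p = 0.0443). For Thra and Thrb it was -0.45 (95% interval -1.01 to 0.11) and -0.47 (95% interval -1.01 to 0.07). Rxrg has no usable value here, with control OPCs all at 0. The OPC and OL comparisons have no library in common.

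**Figure D4:**
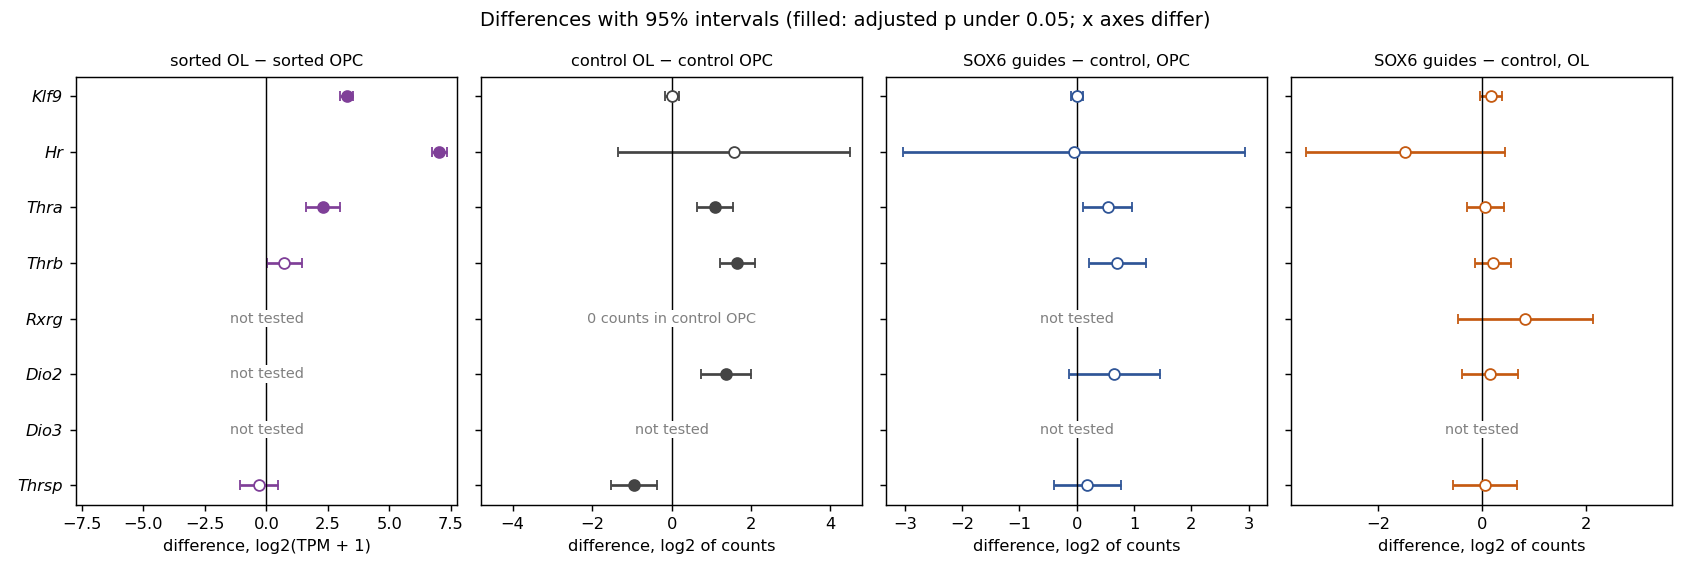
Differences of the 8 thyroid hormone genes in 4 comparisons with 95% intervals; filled points have an adjusted p under 0.05, x axes differ between panels, and the first panel is on the log2(TPM + 1) scale while the others are log2 fold changes of counts. Hr, Klf9 and Thra are filled in sorted cells, Thra, Thrb, Dio2 and Thrsp in control cells, and none in the SOX6 comparisons; Rxrg in control cells is left out since control OPCs had 0 counts.

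Other pathway genes did pass in the SOX6 comparisons. In OPCs 2 of 32 were higher and 1 lower (9.38% called, beside 3.59% of all genes), all of them among 8 other hormone-responsive genes: Aldh1a1 (0.87, edgeR adjusted p = 0.00268), Gpd2, a mitochondrial glycerol phosphate dehydrogenase (0.64, edgeR adjusted p = 0.000740), and Sema7a, a semaphorin (-1.47, edgeR adjusted p = 0.0142). In OLs 4 of 34 were higher and 2 lower (17.6% called, beside 6.5% of all genes). These lists were chosen with results known, so the shares are descriptions. The same 3 genes passed there, Gpd2 at 0.75, Aldh1a1 at 0.66 and Sema7a at -1.28. Aldh1a1 averaged 14.2 TPM in control and 27.0 and 26.8 TPM in targeted OPCs with guides 1 and 2, and 90.4 against 127.5 and 136.5 TPM in OLs. Among 6 transporter genes in OLs, Slc7a5 (0.80, edgeR adjusted p = 0.000520) and its partner chain Slc3a2 (0.67, edgeR adjusted p = 0.0133) were higher and Slc7a8 (-1.14, edgeR adjusted p = 0.0317) was lower. In OLs guide 1 alone called Slc7a5, Slc3a2 and Aldh1a1 (8.82%, beside 4.92% of all genes). Guide 2 alone called these and Gpd2 (11.8%, beside 4.44%). Sema7a and Slc7a8 were called in OLs with neither guide alone. In OPCs each guide alone called Aldh1a1, Gpd2 and Sema7a. For Slc7a5 and Slc3a2 the response was also larger in OLs than in OPCs by the test of the difference (0.81 and 0.62, edgeR adjusted p = 0.000306 and 0.0466). None of the tested receptor partner, corepressor or coactivator genes was called at either stage with both guides together.

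By the fixed measure of likeness, Pearson's r of log2(TPM + 1) over the 23 libraries among genes with a mean of at least 5 TPM, Klf9 was most like Tbc1d14 (0.99), Vat1 (0.98) and App (0.97). Hr was most like Kcna1 (0.98), Dgat2 (0.98) and Dync1li1 (0.98), and Thra most like Dcaf12 (0.96), Os9 (0.96) and Micu2 (0.95). For the less abundant Thrb the closest were Vamp1 (0.86) and Herpud1 (0.85), and for Thrsp Ptpro (0.86), Snrpa (0.86) and Phc2 (0.86). Hr and Klf9 had an r of 0.89 with each other, Thra and Thrb of 0.72. The 23 libraries fall into 8 groups, so these values mostly compare group means, and for Hr and Klf9 the sorted OLs alone set them apart from the rest.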

How the data were processed

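Poly(A) RNA was sequenced, and the library kit does not mark strand. Per the submitters' processing notes, the tools were Salmon 0.14.1 and DESeq2 (version not given in the sources used here) and the build was mm10. The authors deposited estimated counts and TPM for the SOX6 set, TPM for sorted cells, and their own log2 fold changes with adjusted p-values. From these, estimated counts were rounded to whole numbers, filtered with filterByExpr (minimum count 10, minimum total 15), scaled by TMM and tested two-sided in edgeR 4.0.16 (quasi-likelihood F test, R 4.3.3). P-values were adjusted by Benjamini-Hochberg across every tested gene, and 0.05 was the limit. OPCs and OLs had separate fits, except that the stages were compared in 1 fit of 17 libraries, whose TMM scaling also gave the printed CPM. For sorted cells limma 3.58.1 was run on log2(TPM + 1), keeping genes that reached 1 TPM in 3 or more libraries. The code was checked on simulated data. TPM of the listed genes sum to 77.6% to 79.6% of the full scale. Limits for 0 counts cover counting error only.

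Named were the 8 members in every comparison, at most 4 called genes per pathway list and comparison by size of change, and the 3 genes most like each member with a mean of at least 1 TPM in a group. A few genes that the rule would name are not reported here. Outside that rule, Dbp, Me1, Rxra, Nr1d1, markers and some uncalled values were named after their values were seen. The members and lists were chosen with earlier results of these data known. Alternatives were RLE scaling, library totals, no filter, DESeq2 1.42.0, a transcript length offset, both stages in 1 fit, a pseudocount of 0.1, median centring, an intensity trend in limma and leaving out each library. Promoter windows came from RefSeq (GRCm38.p6) and positions from GENCODE M21.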

Additional observations from a re-analysis of the deposited data

How the results depend on the processing

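No paired analysis was possible because the columns carry letters that the labels do not tie to replicate numbers.

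The 3 members called in sorted cells and the 5 called between control stages kept their direction and call under every alternative that tested them: Thra 1.01 to 1.41, Thrb 1.26 to 1.86, Dio2 1.20 to 1.67 and Thrsp -1.09 to -0.86 between control stages, and Hr 6.97 to 9.18, Klf9 3.19 to 3.38 and Thra 2.07 to 2.63 in sorted cells. Leaving out 1 sorted OL library took Hr out of testing, since fewer than 3 libraries then reached the filter, so members called ran from 2 to 3. Of 919 alternative values of single genes, 47 turned sign, 0 of them of a called gene, and 5 became called; elsewhere the cause was not tested.

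With library totals alone, Hr with guide 2 in OPCs was 0.0061, and in OLs Thrsp over both guides was -0.0033 and, with guide 1, Klf9 -0.0081, Thra -0.0082 and Dio2 -0.0397. With a transcript length offset, Thra in OLs was -0.0523 over both guides, -0.0836 with guide 1 and -0.0209 with guide 2, and Hr was -0.98 between control stages and 1.13 in the difference between stages. With both stages in 1 fit, Klf9 in OPCs was -0.0143 over both guides and -0.0307 with guide 1, and 1 member was called in OLs with guide 2 (Klf9).

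Counts of all genes called, for both guides, guide 1 and guide 2 in turn, were 237, 167 and 110 in OPCs and 580, 420 and 331 in OLs with the length offset, 816, 801 and 518 in OPCs and 1500, 1281 and 1137 in OLs by DESeq2, and 254, 189 and 166 in OPCs and 1604, 1367 and 1171 in OLs with both stages in 1 fit. The difference between stages gave 103 with the offset and 525 by DESeq2.

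Leaving out 1 library at a time, all genes called ran, in the same order, from 149 to 550, 7 to 614 and 78 to 254 in OPCs and from 353 to 2337, 256 to 1580 and 212 to 2147 in OLs. They ran from 113 to 638 for the difference between stages. Guide 1 in OPCs has 2 libraries, so leaving one out assumes that the other varies like the rest. Members called ran from 0 to 1 in OLs over both guides, in OLs with guide 2 and in the difference between stages. Values of members that turned sign ran, in OPCs over both guides, from -3.28 to 0.44 (Hr) and -0.0181 to 0.0251 (Klf9). With guide 1 they ran from -6.55 to 0.89 (Hr) and -0.0230 to 0.0274 (Klf9), and with guide 2 from -0.57 to 0.56 (Hr), -0.0131 to 0.0462 (Klf9) and -0.0662 to 0.25 (Thrsp). In OLs they ran from -0.0575 to 0.16 (Thra, both guides), -0.0930 to 0.21 (Dio2, guide 1), -0.0014 to 0.16 (Klf9, guide 1), -0.0363 to 0.15 (Thra, guide 1), -0.31 to 0.71 (Rxrg, guide 2), -0.17 to 0.18 (Thra, guide 2) and -0.0600 to 0.19 (Thrb, guide 2). Between control stages Klf9 ran from -0.0070 to 0.0411, and in the difference between stages Hr from -2.10 to 1.83 and Thrsp from -0.18 to 0.0539.

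Hr and Rxrg had 0 counts in some libraries of the SOX6 set. For Hr in OPCs, these stood beside 15.9 to 23.9 counts in the other libraries, at similar depth, and the reason was not tested. The sorted libraries have no known depth.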
